A study of Mus musculus with 6 samples.

Results

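The keratins of the epidermis described here are 7 genes of 18193 with a probe set naming a single gene, covered by 9 probe sets. They are the basal layer genes Krt5, Krt14 and Krt15 and the suprabasal genes Krt1, Krt10, Krt2 and Krt77, taken as a named list whose members were all found on the array. RNA came from FACS-purified skin cells of 14-day-old mice on a mixed C57B6 and CD1 background. There were 6 arrays, 1 for each combination of 3 cell populations (basal epidermal cells, hair follicle matrix cells and outer root sheath, ORS, cells) and 2 genotypes. The genotypes were Ezh1/2 WT and Ezh1/2 2KO, the double knockout of the Polycomb methyltransferase genes Ezh1 and Ezh2. The 2KO basal epidermal sample is labelled female and the other 5 female and male. The labels name neither the alleles nor the driver of the deletion, nor how many mice were pooled in a sample. With 1 array per group there was no spread between replicates within a population, and each difference below is a description of 2 arrays. A fit over all 6 arrays with the populations as pairs was not run, since it would take populations as replicates and average over their differences.

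Keratins are the intermediate filament proteins of epithelia, and each filament pairs a type I with a type II chain. Basal keratinocytes are known for the pair of Krt14 (type I) and Krt5 (type II). When cells leave the basal layer they switch to Krt10 (type I) and Krt1 (type II), so these genes are widely used to place a cell in the layers of the epidermis. Ezh1 and Ezh2 methylate histone H3 as parts of Polycomb repressive complex 2, which acts mainly at CpG-rich promoters.

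The values are MAS5 signals, a linear intensity per probe set that the authors deposited. A signal below 83.4, the median over all probe sets and arrays, was raised to that floor before ratios were taken. A gene was called higher or lower at 2-fold, and not measured where both arrays lay below the floor. Where 1 of the arrays was below the floor the fold is a bound, written as at least N-fold. Probe sets differ in how brightly they hybridise, so no level is set against that of another probe set, and the summed signal of a gene list is compared only between arrays.

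Each array had a 2% trimmed mean signal of 500, between 47.7% and 53.1% of its probe sets above the floor, and a highest signal between 31216 and 42038. Both targeted genes had less signal in 2KO. Ezh2 went from 2563 to 432 in basal epidermis (5.93-fold lower), from 2151 to 378 in ORS (5.69-fold) and from 3578 to 1725 in matrix (2.07-fold). Ezh1 went from 401 to 57.4, from 380 to 51.6 and from 317 to 89.4, at least 4.81-fold, at least 4.56-fold and 3.54-fold lower. The labels were set against marker lists. The summed signal of 10 matrix, inner sheath and shaft genes was 63093 in WT matrix, 7630 in WT basal epidermis and 6640 in WT ORS. The 9 genes of the ORS and follicle stem cell list summed to 64545 in WT ORS, 54681 in WT basal epidermis and 11450 in WT matrix, so the sum separated ORS from matrix and hardly from basal epidermis. Within it, 4 of 9 genes were lower in WT basal epidermis than in WT ORS (Lhx2, Lgr5, Cd34 and Tcf7l1) and 0 higher. The follicle stem cell markers Lhx2 and Cd34 read 4349 and 1036 in WT ORS, and 141 and 81.5 in WT basal epidermis. Lhx2 also read 2644 in WT matrix. Postn went the other way within 2-fold, with 22431 in WT basal epidermis and 11372 in WT ORS. The 11 matched genes of a basal layer list summed to 86419 in WT basal epidermis, 60119 in WT ORS and 17311 in WT matrix. On the 2KO matrix array the ORS list summed to 50734. Most of that sum came from Krt79 (19517) and Krt17 (18891), which read 18647 and 18575 in WT ORS. Of the other genes only Lhx2 (5112) read above its WT ORS value. Cd34 and Lgr5 read 128.5 and 923 there, beside 1036 and 2450 in WT ORS.

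The windows around the transcription start of 3 members are shown because these genes stand for the different patterns found: Krt77, which differed most between genotypes, Krt10 of the suprabasal pair and Krt5 of the basal pair. Each has 300 bases, 250 before the start and 50 after it, from RefSeq's GRCm38.p6 sequence on the minus strand. Capitals mark the KLF-type motif CACCC and the TATA-like motif TATANA, both searched on both strands, overlapping matches included. The windows lie at chr15:101869656-101869955 (Krt77), chr11:99389315-99389614 (Krt10) and chr15:101712856-101713155 (Krt5).
Krt77: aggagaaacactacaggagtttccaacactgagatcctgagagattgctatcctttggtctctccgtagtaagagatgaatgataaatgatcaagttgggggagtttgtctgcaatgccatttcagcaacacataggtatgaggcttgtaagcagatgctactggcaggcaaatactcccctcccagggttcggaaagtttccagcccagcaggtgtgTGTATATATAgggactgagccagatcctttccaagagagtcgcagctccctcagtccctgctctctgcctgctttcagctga
Krt10: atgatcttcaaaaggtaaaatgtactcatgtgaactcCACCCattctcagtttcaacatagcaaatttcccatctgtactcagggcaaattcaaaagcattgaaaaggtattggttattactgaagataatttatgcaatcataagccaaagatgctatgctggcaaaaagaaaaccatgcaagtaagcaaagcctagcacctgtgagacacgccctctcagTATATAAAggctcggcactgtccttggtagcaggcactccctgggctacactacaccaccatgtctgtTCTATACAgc
Krt5: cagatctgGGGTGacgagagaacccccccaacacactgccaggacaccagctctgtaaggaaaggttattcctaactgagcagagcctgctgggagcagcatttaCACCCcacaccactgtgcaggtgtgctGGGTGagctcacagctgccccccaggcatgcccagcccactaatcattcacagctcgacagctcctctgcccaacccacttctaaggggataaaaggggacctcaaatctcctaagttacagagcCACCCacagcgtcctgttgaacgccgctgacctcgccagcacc

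Windows were found for 5 of the 7 members, namely these 3, Krt2 and Krt14. The starts used for Krt10, Krt2 and Krt14 lie inside the annotated extent of those genes and not at its end, so their positions refer to the start in RefSeq's window, while those of Krt5 and Krt77 match the gene's start. The TATA-like letters lay just upstream of the start in Krt77 (first base at -32, -30 and -28), Krt10 (-28 and -26) and Krt2 (-29), counting the start as 0. Krt10 had further matches after the start, at 40 and 42. TATANA occurred in 24.7% of 32851 such windows, and the stricter TATAAA, found in Krt10 alone of these 5, in 13.6%. CACCC occurred 4 times in Krt5, once each in Krt14, Krt10 and Krt2, and not in Krt77, against 57.5% of all windows with at least 1 match. The AP-1 motif TGANTCA and the AP-2 motif GCCNNNGGC, held by 7.81% and 16.6% of windows, matched none of the 5 windows. All 5 had fewer CpG dinucleotides than the median window, with 2 in Krt10, 3 in Krt77, 5 in Krt14, and 6 each in Krt5 and Krt2, beside a median of 7 over all windows. The share of windows with at most that many was 23.3% for Krt10, 31.4% for Krt77, 43.6% for Krt14 and 47.9% for Krt5 and Krt2. Krt14, Krt5 and Krt2 thus lay close to the median. A match of letters is a description of the window and not a measured binding site.

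**Figure D1:**
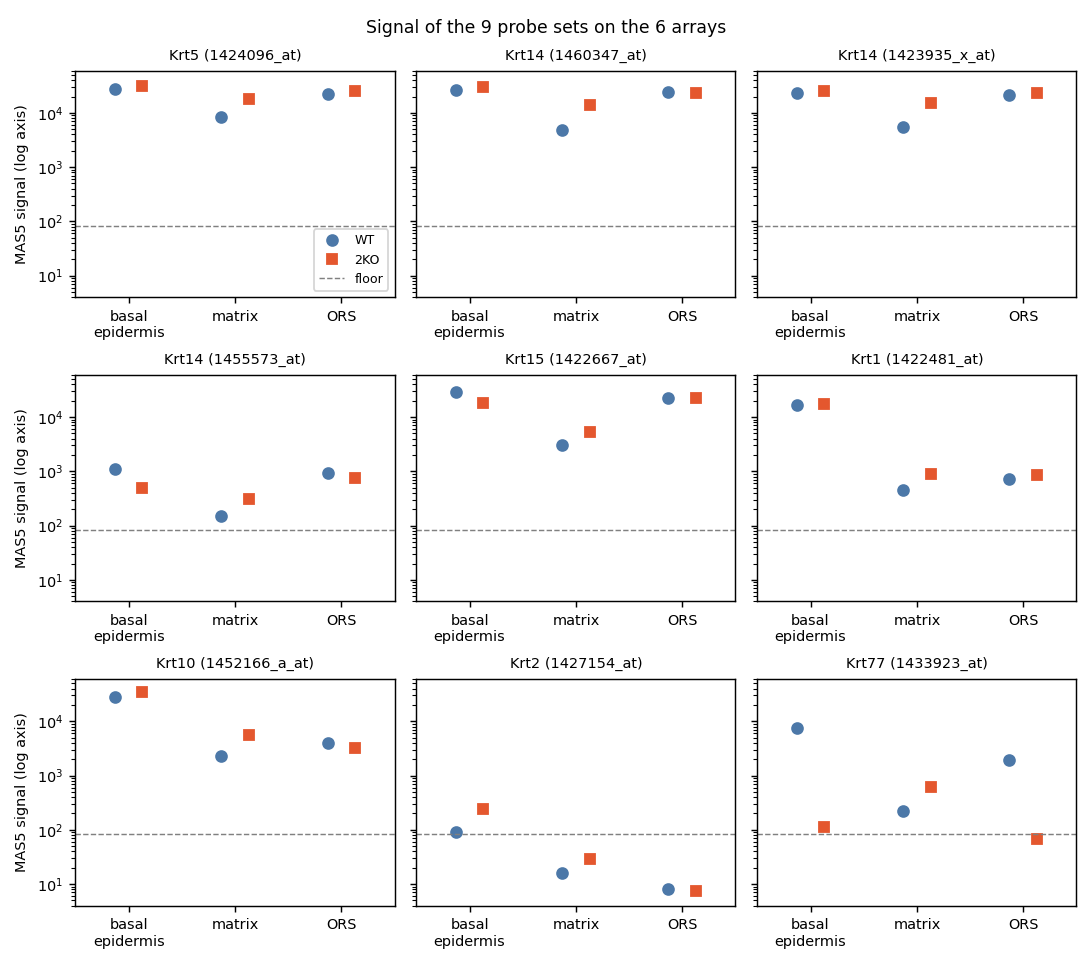
MAS5 signal (log axis) of the 9 probe sets of the 7 keratins on each array, WT as circles and 2KO as squares, with the floor of 83.4 as a dashed line. Krt5, Krt14 and Krt15 were high in basal epidermis and ORS, Krt1 and Krt10 in basal epidermis, and Krt77 was low on the 2KO basal epidermis and ORS arrays (112 and 68.8).

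Among the basal keratins, Krt5 (probe set 1424096_at) gave signals of 28092 (WT) and 30628 (2KO) in basal epidermis, 22122 and 24998 in ORS, and 8423 and 17690 in matrix. WT matrix was thus the low array, and the other 5 lay within 2-fold of each other. In matrix Krt5 was 2.10-fold higher in 2KO. It was 1.09-fold higher in 2KO basal epidermis and 1.13-fold higher in 2KO ORS, both short of 2-fold.

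Krt14, the type I partner of Krt5, gave signals of 26576 (WT) and 29773 (2KO) in basal epidermis, 23776 and 23202 in ORS, and 4805 and 13804 in matrix on its brightest probe set, 1460347_at. It was 2.87-fold higher in 2KO matrix and differed by 1.12-fold and 1.03-fold in the other populations. A further probe set, 1423935_x_at, gave a log2 ratio of 2KO over WT of 0.16 for basal epidermis, 1.47 for matrix and 0.09 for ORS. The dim probe set 1455573_at disagreed in basal epidermis, where it read 1111 in WT and 495 in 2KO, a log2 ratio of -1.17. In matrix it read 151 and 305, and in ORS 927 and 764.

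Krt15, a basal type I keratin also used as a marker of follicle bulge stem cells, had 28535 (WT) and 18000 (2KO) in basal epidermis. The signals were 22416 and 22386 in ORS and 2994 and 5200 in matrix. Krt15 was 1.59-fold lower in 2KO basal epidermis and 1.74-fold higher in 2KO matrix, and in ORS the log2 ratio was 0.00. None of these reached 2-fold. Many of these signals lay near the top of the scale. Of 45101 probe sets, 25 to 365 were brighter than the brightest probe sets of Krt5, Krt14, Krt15, Krt1 and Krt10 on the basal epidermis arrays, and 113 to 189 than those of Krt5, Krt14 and Krt15 on the ORS arrays. Krt5 and Krt14 in 2KO matrix had 311 and 443 brighter. Compression of ratios at that end was not tested.

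The suprabasal pair showed another distribution. Krt1 (1422481_at) had signals of 16394 (WT) and 17735 (2KO) in basal epidermis, 732 and 872 in ORS, and 462 and 896 in matrix. Krt10 (1452166_a_at) had 28000 and 34141 in basal epidermis, 3904 and 3273 in ORS, and 2309 and 5537 in matrix. Both were high on the 2 basal epidermis arrays, which the labels give as sorted basal cells, and lower on the other 4. The 2KO over WT ratio was 1.08-fold for Krt1 and 1.22-fold for Krt10 in basal epidermis. In matrix Krt10 was 2.40-fold higher in 2KO and Krt1 1.94-fold, just under the threshold. In ORS Krt1 was 1.19-fold higher and Krt10 1.19-fold lower. In bulk samples such as these, a different number of cells of a type and a different amount of RNA per cell cannot be told apart.

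Krt2, a type II keratin of the upper suprabasal layers, was near or below the floor on 5 of 6 arrays. Its signals were 90.7 (WT) and 240 (2KO) in basal epidermis, 16.2 and 28.8 in matrix, and 8.22 and 7.60 in ORS. It was 2.65-fold higher in 2KO basal epidermis and was not measured in the other 2 populations. At a floor of 467, the 75th percentile, it was not measured in basal epidermis either.

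Krt77, a type II keratin of the suprabasal epidermis that is known in human skin from sweat gland ducts, differed most. On its 1 probe set, 1433923_at, the signal in basal epidermis was 7616 in WT and 112 in 2KO, 67.8-fold lower. In ORS it read 1937 in WT and 68.8 in 2KO, at least 23.2-fold lower. In matrix it read 221 in WT and 609 in 2KO, 2.76-fold higher. With a floor of 467 the log2 ratios were -4.03, -2.05 and 0.38 in place of -6.08, -4.54 and 1.46, so the matrix difference was then under 2-fold. The order of the populations was basal epidermis, ORS, matrix in WT. In 2KO matrix was the highest, with basal epidermis just above the floor and ORS below it. The difference in log2 ratio between basal epidermis and matrix was -7.55 for Krt77, while it lay between -1.46 and -0.84 for the 5 other members measured in both.

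**Figure D2:**
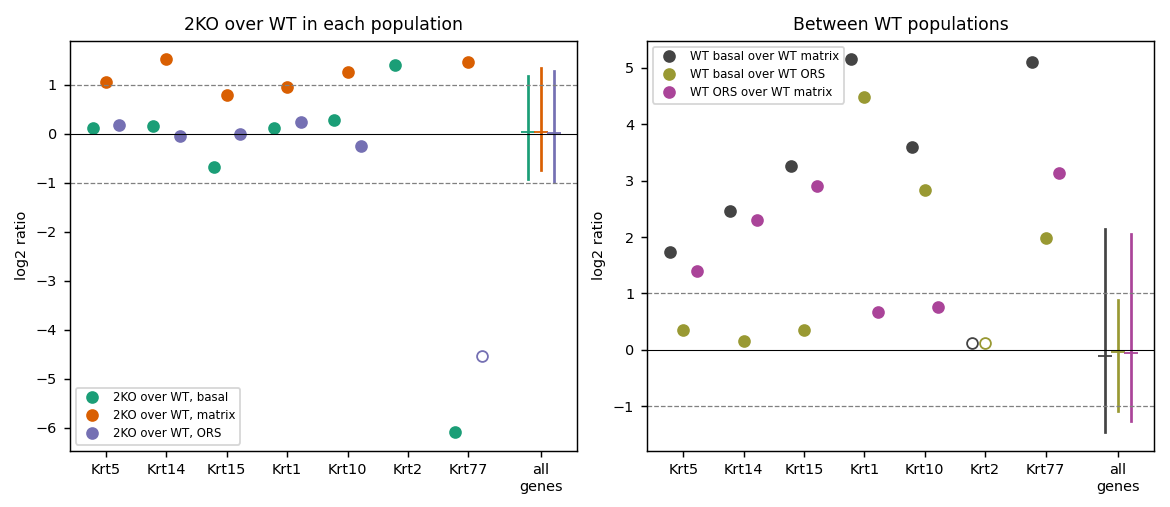
Log2 ratio of the 7 keratins, 2KO over WT in each population (left) and between WT populations (right), with dashed lines at 2-fold and open circles for lower bounds. The vertical lines at the right of each panel span the 5th to 95th percentile of all measured genes with the median as a tick. Krt77 at -6.08 and -4.54 lies far below that range in basal epidermis and ORS.

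Read across the members, 2KO and WT basal epidermis differed in 2 of 7 keratins, Krt2 higher and Krt77 lower, where 6.59% of 11525 measured genes were called higher and 4.09% lower. In ORS 0 of 6 measured members were higher, against 8.17% of 11984 genes, and 1, Krt77, was lower, against 4.75%. In matrix 4 of 6 were higher (Krt5, Krt14, Krt10 and Krt77), against 9.03% of 11651 genes, and 0 were lower, against 1.62%. The median log2 ratio of the measured members came to 0.12 for basal epidermis, 1.17 for matrix and -0.02 for ORS, beside 0.04, 0.03 and 0.01 over all genes. In ORS 5 of the 6 members lay between -0.25 and 0.25, and Krt5 and Krt1 there went from 0.18 and 0.25 to -0.08 and 0.00 with a common median. The members were named with earlier results of these arrays known, so the counts are descriptions.

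The matrix result depended on how the arrays were scaled. Scaling to a common median moved the median log2 ratio of all genes in matrix to -0.24, and scaling to the hybridisation control probe sets moved it to -0.58. The members called higher there were then 2 (Krt14 and Krt77) and 0, while 6.14% and 3.94% of all genes were called higher and 4.97% and 18.1% lower. Both scalings multiply an array by 1 constant, so they shift the members and the other genes together. As deposited, Krt14 lay 1.49 and Krt5 1.04 above the median log2 ratio of all genes in matrix. In ORS the shares of genes called higher and lower were 5.45% and 8.54% with a common median and 6.38% and 6.66% with the controls. Krt77 was the member called lower there under all 9 alternatives. Those of probe set choice could not change this, since Krt77 has 1 probe set.

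Markers of several other cell populations were also higher on the 2KO matrix array, and those of others were not. Of 9 ORS and follicle stem cell genes 6 were higher and 0 lower, among them the ORS regulator Sox9 (186 in WT and 2345 in 2KO). Fibroblast markers were higher in 5 of 6 measured cases, muscle markers in 3 of 4 and immune markers in 3 of 6, with 0 lower in each. Their summed signals in WT and 2KO matrix were 19960 and 35961, 242 and 2316, and 858 and 4305. H2-Eb1 alone gave 315 and 2873 of the immune sums. Scaling to the controls left 2 of 7 fibroblast markers, 2 of 4 muscle markers and again 3 of 6 immune and 6 of 9 ORS genes higher. Merkel cell markers were higher in 3 of 3 measured cases (Krt8, Krt18 and Isl1) and summed to 237 and 1421. The other Merkel cell markers, Krt20 and Atoh1, were below the floor on both arrays. Of 5 melanocyte markers 0 were higher and 1 lower (Dct, 2245 in WT and 936 in 2KO), with sums of 3004 and 1847, and of 2 measured endothelial markers 0 were higher or lower. The fibroblast marker Pdgfra, the muscle marker Ckm and the T cell marker Cd3e were below the floor on both arrays. The summed signal of the 7 members was 19231 and 43764 on the same arrays. The part of these cells in the keratin values of matrix was not tested.

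On the basal epidermis arrays the picture of other cells differed. The matrix, sheath and shaft list was lower in 7 of 10 cases in 2KO and higher in 1. Its summed signal was 7630 in WT and 2116 in 2KO. Those lower were keratin genes and Gata3, which are counted again in the keratin and regulator lists below. The 1 higher was Lef1 (126 in WT and 396 in 2KO), and Msx2 (268 and 175) and Hoxc13 (189 and 225) were within 2-fold. The immune list had 3 of 5 lower (Ptprc, Cd74 and Lyz2) and summed to 5545 and 5118. In that sum H2-Eb1 went up, from 2232 to 3627, which was within 2-fold. The melanocyte list had 1 of 4 lower and summed to 1316 and 721. In the Merkel cell list 3 of 4 were higher (Krt8, Krt18 and Isl1), with Atoh1, the defining factor of that lineage, below the floor on both arrays. The ORS list had 3 of 9 higher and 1 lower. In ORS the matrix list had 6 of 10 lower and 1 higher, again Lef1 (159 and 803), and summed to 6640 and 3234. Of the Merkel cell list 3 of 3 measured markers were higher there, with Krt20 and Atoh1 below the floor on both arrays. Whether these differences bear on Krt77 was not tested.

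The WT populations were compared next. Relative to WT matrix, 6 of 7 were higher in WT basal epidermis (13.8% of 11265 genes were) and 0 lower (11.3%). Krt1 was 35.5-fold, Krt77 34.5-fold, Krt10 12.1-fold, Krt15 9.53-fold, Krt14 5.53-fold and Krt5 3.34-fold higher. Relative to WT ORS, 3 of 7 were higher in basal epidermis (4.15% of 11312 genes) and 0 lower (5.87%). These were Krt1 at 22.4-fold, Krt10 at 7.17-fold and Krt77 at 3.93-fold, while Krt5, Krt14 and Krt15 differed by 1.27-fold, 1.12-fold and 1.27-fold. In WT ORS over WT matrix 4 of 6 were higher (13.9% of 11422 genes) and 0 lower (8.6%). There Krt77 was 8.78-fold, Krt15 7.49-fold, Krt14 4.95-fold and Krt5 2.63-fold higher, and Krt10 and Krt1 were within 2-fold at 1.69-fold and 1.58-fold. Each of these comparisons shares its arrays with the others and with the genotype ratios.

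In the 2KO samples the contrast between basal epidermis and matrix was smaller for each of these genes. It was 1.73-fold for Krt5, 2.16-fold for Krt14, 3.46-fold for Krt15, 6.17-fold for Krt10 and 19.8-fold for Krt1. Basal epidermis over ORS was 20.3-fold for Krt1 and 10.4-fold for Krt10 in 2KO, beside 22.4-fold and 7.17-fold in WT. Krt77 was reversed, at 5.42-fold lower in basal epidermis than in matrix in 2KO. Krt77 was also at least 7.29-fold lower in 2KO ORS than in 2KO matrix, where WT ORS was the higher.

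Over the 6 arrays the log2 signals of the filament partners ran together, with a Pearson r of 0.99 for Krt5 and Krt14 and 0.99 for Krt1 and Krt10. Krt15 had an r of 0.92 with Krt14 and 0.90 with Krt5. Krt77 had r between -0.37 and 0.30 with each of the other 6. These are descriptions over 6 arrays of the same 3 populations, and genes that separate the populations share most of that variation.

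Genes elsewhere with the most similar pattern over the 6 arrays, among 5995 genes that spanned at least 2-fold, were found for each member. Closest to Krt77 were Scube2, encoding a secreted protein of the hedgehog pathway (r 0.99), Tmem154 (0.98) and Sh3d21 (0.97). Scube2 had 846 (WT) and 117 (2KO) in basal epidermis, 398 and 98.2 in ORS, and 151 and 202 in matrix, so it was low on the same 2 arrays as Krt77. Tmem154 lay near or below the floor in 2KO basal epidermis, WT matrix and 2KO ORS. Closest to Krt1 and also to Krt10 were Il1f9, the interleukin-36 gamma gene (0.99 and 0.98), and Spink5, the LEKTI protease inhibitor gene (0.99 and 0.98), followed by Gramd3 (0.99) and Ehd4 (0.98). Spink5 read only 53.2 to 91.3 on the matrix and ORS arrays, and Il1f9 was below the floor in WT matrix and WT ORS. The r values of these 2 genes thus rest largely on the basal epidermis arrays. Closest to Krt5 were Anxa2, Map3k8 and Card10, and closest to Krt14 were Tmsb4x, Hmgn3 and Arhgef16. For Krt15 they were L3mbtl3, Atxn1 and Ppp3ca. The genes closest to Krt2 (Qpct, Lce3c and Slc2a9) rest on the 2KO basal epidermis array, since Krt2 lay at or near the floor on the others.

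**Figure D3:**
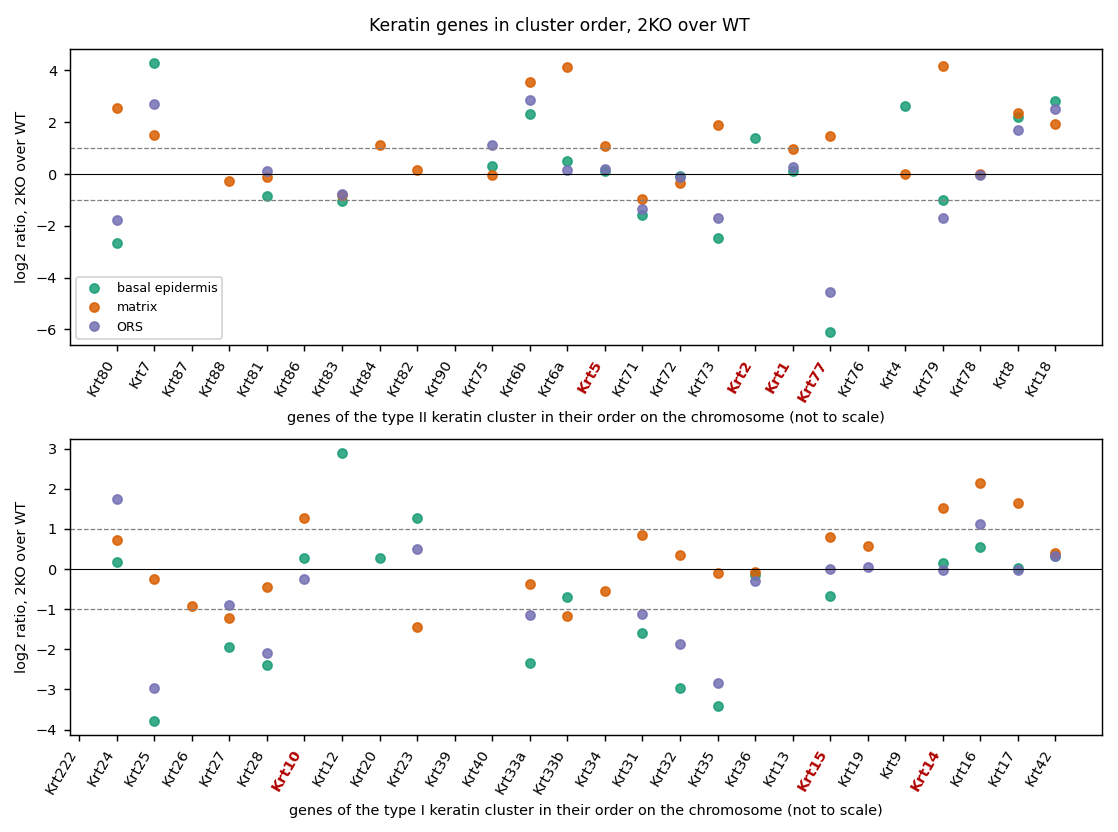
Log2 ratio of 2KO over WT for the genes of the type II (top) and type I (bottom) keratin clusters in chromosome order, with members in bold and dashed lines at 2-fold. Some points are lower bounds and names without a point were not measured or not on the array. Krt77 at -6.08 and -4.54 sits beside Krt1 at 0.11 and 0.25 in basal epidermis and ORS.

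The keratin genes lie in 2 clusters, of which the type II cluster holds Krt5, Krt2, Krt1 and Krt77 and the type I cluster Krt10, Krt15 and Krt14. In gene order Krt77 lies between Krt1 and Krt76, which was below the floor on all 6 arrays. On the other side of Krt1 lies Krt2. The next genes beyond Krt76 are Krt4, with 43.6 (WT) and 519 (2KO) in basal epidermis, and Krt79. Krt79, a keratin of the upper follicle and sebaceous duct, had log2 ratios of 2KO over WT of -0.99 for basal epidermis, 4.18 for matrix and -1.71 for ORS. Krt1, the neighbour of Krt77, stayed within 2-fold in basal epidermis and ORS.

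Of 32 keratin genes measured in all populations, 3 were called lower in basal epidermis and ORS and higher in matrix, namely Krt77, Krt80 and Krt73. Krt77 leaves this set with the control scaling or a floor of 467, where its matrix log2 ratio was 0.83 and 0.38. Krt73 also leaves it at that floor. Its signals in WT and 2KO were 457 and 52.9 in basal epidermis and 332 and 102 in ORS, all below 467. This combination was chosen after the values were seen, and 21 of 10829 genes (0.194%) showed it. Krt80, a keratin of many epithelia, had log2 ratios of -2.67, 2.54 and -1.78, and Krt73, of the inner root sheath, -2.45, 1.87 and -1.70.

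Among the 37 other keratins named by a plain number, 6 of 26 measured were higher and 10 lower in 2KO basal epidermis, 9 of 31 higher and 2 lower in matrix, and 6 of 25 higher and 9 lower in ORS. The medians were -0.11, 0.02 and -0.10, and the matrix one was -0.03 after loess and -0.47 after scaling to the controls. The matrix counts were 8 higher and 5 lower of 29 with a common median and 8 and 6 of 28 with the controls, and the ORS counts 4 and 10 of 24 with either. Krt7, found in simple epithelia, was 19.6-fold higher in 2KO basal epidermis. Krt25 of the inner sheath was 13.9-fold lower, and the hair shaft genes Krt32 and Krt35 were 7.80-fold and at least 10.7-fold lower. The stress keratin Krt16 was 4.42-fold higher in matrix and 2.17-fold higher in ORS. The ORS value, a log2 ratio of 1.12, falls under 2-fold with a common median or the controls.

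Genes that serve the basal layer with these keratins were compared from a list of 12, of which 11 were matched. In 2KO basal epidermis 0 of 11 were called higher or lower, in matrix 4 were higher and 0 lower, and in ORS 0 differed by 2-fold. The 4 were Bcl11b, a transcription factor of keratinocytes (418 in WT and 1778 in 2KO), the laminin chain gene Lamb3 (209 and 666), Dst, which anchors keratin at hemidesmosomes (911 and 2476), and the integrin gene Itgb4 (483 and 1194). With a common median 2 were lower in basal epidermis, and with the controls 1 was lower there and 2 were higher and 1 lower in matrix. The medians were -0.57, 0.57 and 0.05. The matrix one was -0.06 after scaling to the controls, and the ORS one was -0.21 and -0.11 after common median and control scaling. Trp63, the master regulator of stratified epithelium, had 10141 (WT) and 5470 (2KO) in basal epidermis, 6411 and 5325 in matrix, and 10485 and 7808 in ORS.

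Suprabasal genes other than keratins gave mixed results. Basal epidermis had 4 of 13 higher and 2 lower, matrix 5 of 14 higher and 2 lower, and ORS 2 of 13 higher and 2 lower. These counts moved with scaling: ORS had 0 higher and 6 lower with a common median and 0 and 5 with the controls, matrix 4 and 4, and 3 and 4, and basal epidermis 3 and 3 with either. Medians were 0.40, 0.59 and -0.71, with the matrix one -0.02 after scaling to the controls. In basal epidermis Calml3 was 5.29-fold, Mt4 4.87-fold and the cornified envelope gene Lor 3.41-fold higher, and the desmosomal cadherin gene Dsg1a 4.23-fold lower. In matrix Krtdap, a keratinocyte differentiation gene, was 9.31-fold, the calmodulin-like gene Calm4 4.54-fold and the suprabasin gene Sbsn 3.55-fold higher. Calm4 was 7.58-fold lower in ORS. Flg, the filaggrin gene, was lower in all populations, by at least 2.48-fold, 2.62-fold and 2.15-fold.

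Proteins that bind keratin filaments include desmosomal and plakin genes. In basal epidermis 1 of 9 was lower, the periplakin gene Ppl at 2.01-fold, and 0 were higher. In matrix 3 of 9 were higher, the epiplakin gene Eppk1 at 5.40-fold, Dst at 2.72-fold and the plectin gene Plec at 2.06-fold. In ORS 0 of 9 differed by 2-fold. The matrix count was 2 with a common median and 1 with the controls. The medians were -0.05, 0.86 and 0.12, of which the matrix one was 0.58 and 0.23 and the ORS one -0.13 and -0.04 after common median and control scaling.

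Regulators known to act on epidermal keratin genes, transcription factors and the receptor gene Notch1, were compared from a list of 18, of which 17 were matched. Of 17 measured, 1 was higher and 3 lower in basal epidermis, and 1 higher and 1 lower in matrix. The ORS arrays had 1 higher, Notch1 at 2.01-fold, and 4 lower. Over all measured genes, 6.59% were higher and 4.09% lower in basal epidermis. The shares were 9.03% and 1.62% in matrix, and 8.17% and 4.75% in ORS. Grhl3, an epidermal barrier factor, was 4.16-fold higher in basal epidermis, and Gata3, Pou3f1 and Pou2f3 were 3.87-fold, 3.02-fold and 2.39-fold lower. In ORS Zfp750, a p63 target that promotes differentiation, was 3.97-fold, Cebpa 2.80-fold, Pou3f1 2.46-fold and Gata3 2.46-fold lower. In matrix Bcl11b was 4.25-fold higher and the Notch target Hes1 2.44-fold lower. The medians were -0.33, 0.02 and -0.12, and the matrix median was -0.26 with a common median and -0.61 with the controls. Basal epidermis had 5 and 4 lower under these scalings, and ORS 0 higher.

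**Figure D4:**
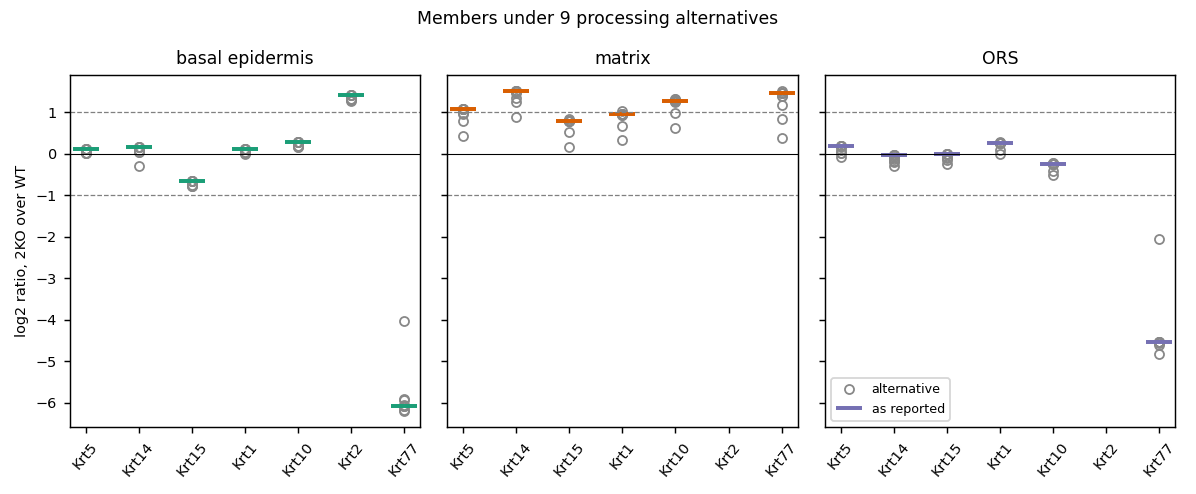
Log2 ratio of 2KO over WT for each member as reported (bars) and under each of 9 processing alternatives (open circles), by population, with dashed lines at 2-fold. In matrix the reported values of 0.80 to 1.52 move down to 0.16 to 0.89 under scaling to the hybridisation controls, and Krt77 stays below -2 in basal epidermis and ORS.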

How the data were processed

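RNA of 6 samples was hybridised to Affymetrix mouse expression arrays, named MOE430A 2.0 and MOE430v2 in different places of the series text. The authors deposited 1 signal intensity per probe set, on a linear scale and used unchanged. The submitters' processing notes name MAS5 as the tool, without a version. Python 3.11.15 with pandas 2.3.3 was used for all values. Symbols came from the platform annotation (34945 probe sets naming 1 gene), and each gene was represented by its brightest probe set by mean log2 signal.

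With 1 array per group no test was made within a population, a fit with populations as pairs was not run, and no p-value is given, and the number of arrays limits the precision. The fold threshold of 2 is that of the series text. In simulated data on 18193 genes per population, between 99% and 100% of 3-fold changes, set in genes with signals well above the floor, were called. The noise there was assumed and small beside such changes. The result checks the calling step and does not measure the sensitivity of the calls on these arrays. Alternatives covered scaling, normalization (loess, quantile), floor, log2(signal + 16) and probe set choice. The members and gene lists were chosen with earlier results of these data known. Of each list, up to 4 genes per comparison with the largest differences were named. Outside this rule, Trp63, Krt73, Krt4, Krt76, Atoh1, Pdgfra, Ckm, Cd3e, Krt16 in ORS and Flg in basal epidermis were chosen after their values were seen. So were Postn in WT basal epidermis, H2-Eb1 in basal epidermis, and Lhx2, Cd34, Lgr5 and Krt17 in 2KO matrix. For each member spanning 2-fold, the 3 non-members with the highest Pearson r were named.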

Additional observations from a re-analysis of the deposited data

Results flagged for a closer look

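Krt77 differed in opposite directions between populations, and the difference was not tested. Its log2 ratio of 2KO over WT was -6.08 in basal epidermis and -4.54 in ORS, the latter a bound set by the floor, and 1.46 in matrix. Each value rests on 2 arrays. Krt77 has 1 probe set here, so no second probe set was compared.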

How the results depend on the processing

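A paired fit of genotype with the 3 populations as pairs was not run, and the labels give no replicate numbers. Of 348 single values recomputed under the alternatives, 327 kept their call and moved by under 1.5-fold. Another 21 moved more or changed call, and 0 called values changed sign. Part of the 327 could not have changed. The alternatives of probe set choice could change only Krt14, since each other member has 1 probe set. The floor alternatives could not move Krt5, Krt14, Krt15 or Krt10, whose signals lay above each floor on all arrays. The count of values kept is thus not a measure of robustness. The number of members called in 2KO basal epidermis was 1 in place of 2 with a floor at the 75th percentile, where Krt2 was no longer measured. The number called in matrix was 2 in place of 4 with a common median and 0 with the hybridisation controls, and Krt5 also fell under 2-fold after quantile normalization (0.99) and loess (0.95). Krt1 in matrix reached 2-fold after loess (1.04). Krt77 in matrix was 0.83 with the controls and 0.38 with the floor at the 75th percentile. The counts in ORS and in the comparisons between WT populations stayed within 1.5 times of the reported ones. Krt14 in basal epidermis was -0.28 in place of 0.16 with the mean of its probe sets. Krt2 in WT basal epidermis over WT matrix reached 2.09 when the floor was the 25th percentile, so its distribution over the WT populations depends on the floor.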
